A study of Mus musculus with 12 samples.

Results

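10 genes of the G1 checkpoint machinery were read in cultured mouse muscle stem cells: the D cyclins Ccnd1, Ccnd2 and Ccnd3, their kinase partners Cdk4 and Cdk6, the CIP/KIP inhibitors Cdkn1a, Cdkn1b and Cdkn1c, and the INK4 inhibitors Cdkn2a and Cdkn2c. They were chosen by gene symbol, and the 10 symbols matched 10 of the 23586 genes measured. These genes and the lists used below were chosen with earlier results of these data known. Counts of calls set beside shares of all tested genes are therefore a description and not a test of enrichment. The cells carried the Pax3nLacZ-IRES-GFP allele, in which GFP is made from the Pax3 locus, and were sorted into GFP-positive and GFP-negative populations. Each population was transfected in Lipofectamine LTX with 2 µg of pCR3-Six2, a plasmid with the mouse cDNA of the homeobox factor SIX2, or with empty pCR3, and every group grew in medium with 20% fetal calf serum and 4 ng/mL basic FGF. RNA from at least 50000 cells a sample gave 3 libraries in each of 4 groups: GFP-negative control, GFP-negative SIX2, GFP-positive control and GFP-positive SIX2. The labels give no age or sex of the mice, and leave unsaid whether the 3 libraries of each group are separate animals or cultures. The p-values therefore reflect spread among libraries alone, which may be technical.

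D cyclins bind CDK4 and CDK6 and carry growth factor signals into phosphorylation of the retinoblastoma protein, which frees E2F factors to switch on genes for DNA replication. INK4 inhibitors bind CDK4 and CDK6 directly, while CIP/KIP inhibitors bind cyclin and kinase together and restrain the later cyclin E and A kinases as well. In muscle, p21 (Cdkn1a) and p57 (Cdkn1c) are known for the exit of myoblasts from the cell cycle, p27 (Cdkn1b) for reserve and quiescent stem cells, and Ccnd3 is the D cyclin that remains in differentiating muscle cells.

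Values are normalized counts, that is, reads per gene divided by a scaling factor of each library, and tests are limma-trend fits of log2(normalized count + 1) across 14580 genes, with Benjamini-Hochberg adjusted p under 0.05 taken as a call. Libraries held 12438885 to 47299937 reads. The GFP-positive SIX2 libraries held 12632428 to 15492340 and the GFP-positive control libraries 31295165 to 47299937. The GFP-negative SIX2 libraries held 34048869 to 40182810 and the GFP-negative control libraries 12438885 to 33151990. Depth and plasmid label therefore cannot be told apart in either population, and the deeper label differs between them. Among SIX2 libraries, depth and GFP label cannot be told apart either. With all libraries thinned to the smallest total, 5 members were still called in GFP-negative and 6 in GFP-positive cells. Six2 itself lay between 3.37 and 28.6 normalized counts (2 to 36 reads). Its means in control and SIX2 libraries were 14.8 and 21.9 in GFP-negative and 7.34 and 19.5 in GFP-positive cells. It was not called by plasmid label (limma-trend adjusted p = 0.421 and 0.209), so it did not bear the plasmid labels out. The RT-qPCR for Six2 that the labels mention was not analysed here. Pax3 was 71.4 ± 2.79 (SD, n = 3) in GFP-negative and 72.2 ± 19.0 in GFP-positive control libraries, and so did not bear the sort labels out. In SIX2 libraries it was 16.5 ± 2.72 and 10.4 ± 5.69, lower by plasmid label in both populations (log2 differences of -2.06 and -2.82, limma-trend adjusted p = 0.0022 and 0.00029). All groups are therefore named by their labels. All 7 muscle stem cell and myoblast markers averaged at least 10 normalized counts in each group, with summed values of 144387 to 241219 in single libraries. Most of each sum was Des, with group means of 105967 to 168413, while those of Pax7 were 98.0 to 170. The list split by plasmid label. Pax7, Myf5 and Vcam1 were called higher and Des lower with the SIX2 label in both populations. Cdh15 and Itga7 were called lower in GFP-negative cells alone, and Myod1 in neither population. The differentiation gene Myog had group means of 73569 to 92633, so the sums do not show that the cells were undifferentiated. Of markers of other cells, 5 endothelial genes summed to 2.41 to 33.7, 3 Schwann genes to 10.00 to 25.7, 4 blood genes to 64.5 to 111 and 2 tendon genes to 334 to 632. The summed 4 fibro-adipogenic markers averaged 44.9 and 80.5 in GFP-negative control and SIX2 libraries and 47.2 and 75.1 in GFP-positive ones, with Dcn at 0 in every library of 3 groups. Ly6a, of the same list, was called higher with the SIX2 label in both populations. The summed 4 pericyte and smooth muscle markers averaged 1992 and 1402, and 1923 and 1347, in the same order of groups. Among them Cspg4 was called lower with the SIX2 label in both populations, Rgs5 higher in GFP-negative and Pdgfrb higher in GFP-positive cells. Among the blood and tendon genes, Csf1r was called higher and Scx lower in both populations, and Mkx higher in GFP-negative cells. The part of these shifts in the results below was not tested.

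Of the 10 members, 9 passed the filter (a normalized count of 10 or more in 3 or more libraries), and Cdkn2a did not. In GFP-negative cells 5 of the 9 were higher with the SIX2 label (Ccnd1, Ccnd2, Cdk4, Cdk6 and Cdkn1b) and 0 lower, where 27.9% of all tested genes were called, 13.6% higher and 14.3% lower. In GFP-positive cells 6 of the 9 were higher (Ccnd1, Ccnd2, Ccnd3, Cdk4, Cdk6 and Cdkn2c) and 0 lower, against 23.3% of all tested genes called, 12.1% higher and 11.2% lower. The median log2 difference of the 9 was 0.39 in GFP-negative and 0.54 in GFP-positive cells, and over all tested genes it was 0.00 and -0.01. Ccnd1, Ccnd2, Cdk4 and Cdk6 were called in both populations, and no inhibitor was called by plasmid label in both. In bulk RNA, more or fewer cells of a state and more or less transcript per cell cannot be told apart.

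**Figure D1:**
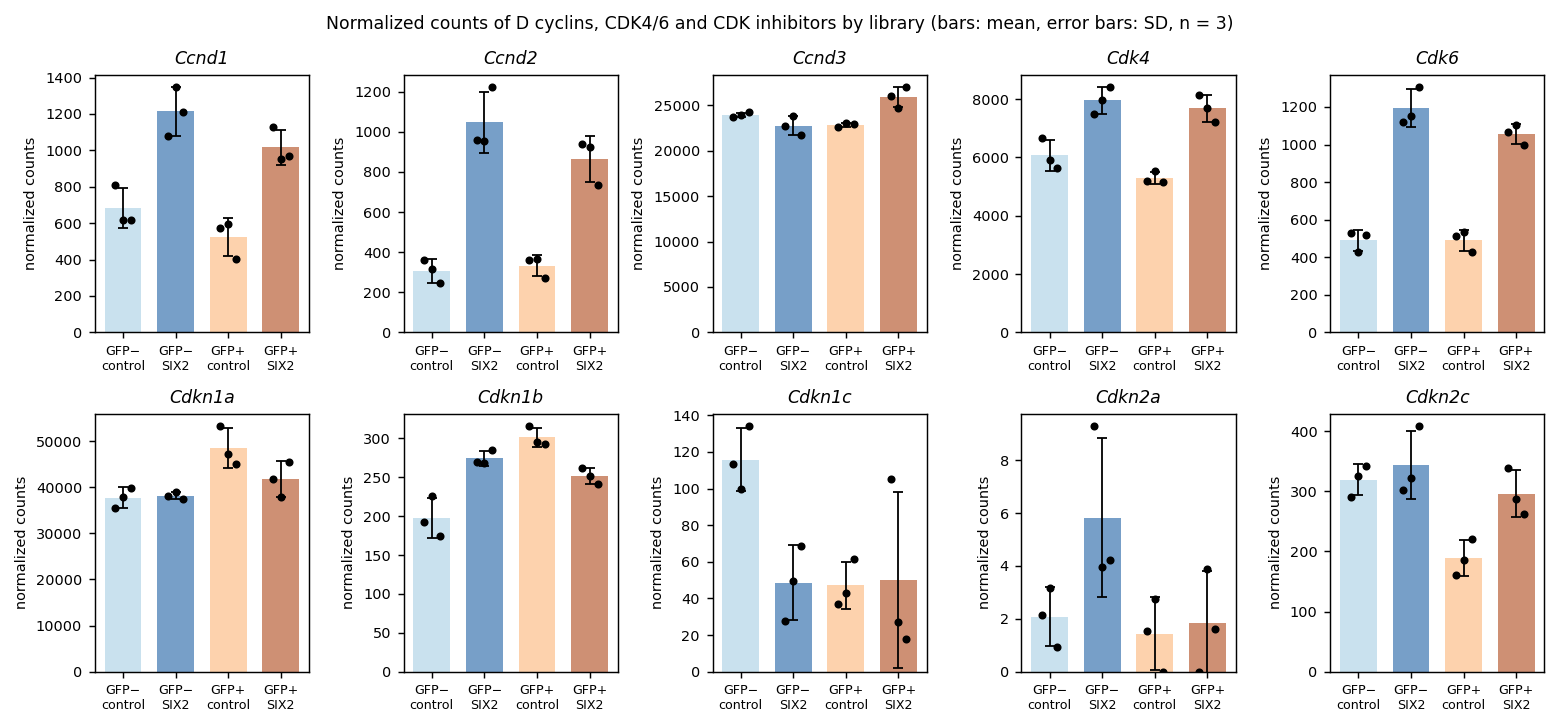
Normalized counts (vertical axes, each from 0) of the 10 genes in the 4 groups (horizontal axes); points are libraries, bars are means and error bars are SD (n = 3). Ccnd1, Ccnd2, Cdk4 and Cdk6 stand higher in both SIX2 groups, Cdkn1b is lowest in the GFP-negative control group, and Cdkn2c is lowest in the GFP-positive control group.

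Ccnd2, a mitogen-responsive D cyclin (ENSMUSG00000000184.12, GRCm38 chr6:127125162-127152193, minus strand), showed the largest called difference of the 9 tested members in both populations. Control libraries of GFP-negative cells had 360, 316 and 244 normalized counts and SIX2 libraries 960, 955 and 1224. In GFP-positive cells they were 363, 364 and 271 with the control label and 938, 926 and 733 with the SIX2 label. The groups did not overlap in either population, and the control groups of both sorts overlapped. The log2 difference by plasmid label was 1.78 ± 0.17 (SE) in GFP-negative cells (limma-trend adjusted p = 1.11e-05). GFP-positive cells gave 1.38 ± 0.17 (adjusted p = 7.42e-05). In means this was 3.41-fold and 2.60-fold. The 2 antisense genes that share exon bases with Ccnd2 on the opposite strand did not exceed 8.93 normalized counts.

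Ccnd1, the D cyclin best known as a target of growth factor signalling (ENSMUSG00000070348.5, chr7:144929931-144939925, minus strand), moved the same way. It stood at 810, 618 and 618 in GFP-negative control libraries and at 1080, 1349 and 1212 in GFP-negative SIX2 libraries. GFP-positive control libraries gave 575, 593 and 402 and GFP-positive SIX2 libraries 1127, 951 and 969. Every library with the SIX2 label was above every library with the control label, across both sorts. The log2 differences were 0.84 ± 0.15 (SE; limma-trend adjusted p = 0.00128) and 0.97 ± 0.15 (adjusted p = 0.000563). Ccnd1 shares 1100 exon bases with LTO1 on the opposite strand, and the protocol records no strand, so reads in those bases cannot be told apart. LTO1 went the opposite way to Ccnd1: it fell by 0.26 on the log2 scale in GFP-negative cells (limma-trend adjusted p = 0.0473), and it fell by 0.30 in GFP-positive cells (adjusted p = 0.0283).

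Ccnd3 (ENSMUSG00000034165.16, chr17:47505051-47599691, plus strand) was the most abundant of the D cyclins and varied least. Its means were 23958 ± 249 (SD, n = 3) in the GFP-negative control group, 22764 ± 1042 in the GFP-negative SIX2 group, 22893 ± 219 in the GFP-positive control group and 25913 ± 1132 in the GFP-positive SIX2 group. The GFP-positive SIX2 libraries were above all 9 others, while the GFP-negative groups overlapped. The log2 difference was 0.18 ± 0.05 (SE) in GFP-positive cells (limma-trend adjusted p = 0.0211) and -0.07 ± 0.05 in GFP-negative cells (adjusted p = 0.304). The call in GFP-positive cells was lost without GFP-positive SIX2 replicate 1 (adjusted p = 0.0529), without GFP-positive SIX2 replicate 3 (0.0785) and without GFP-positive control replicate 1 (0.0625), and also with no filter on low values (0.0523) and in a fit of those 2 groups alone (0.0575). The difference between the populations was 0.25 ± 0.07 (SE; limma-trend adjusted p = 0.129). Bysl, which shares 361 exon bases with Ccnd3 on the opposite strand, was not called by plasmid label, and the pseudogene Ccnd3-ps did not exceed 8.41 normalized counts.

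Per length of the longest coding transcript, Ccnd3 made up nearly all D cyclin signal. Its share of the summed D cyclin level per kilobase was 98.0% ± 0.334 (SD, n = 3) in the GFP-negative control group, 95.6% ± 0.431 in the GFP-negative SIX2 group, 98.3% ± 0.332 in the GFP-positive control group and 96.8% ± 0.344 in the GFP-positive SIX2 group. The Ccnd1 share was 1.58% ± 0.264, 2.88% ± 0.264, 1.27% ± 0.255 and 2.14% ± 0.200 in the same order. The Ccnd2 share was 0.419% ± 0.0828, 1.47% ± 0.276, 0.476% ± 0.0768 and 1.08% ± 0.177. With the SIX2 label the shares of Ccnd1 and Ccnd2 were higher in every library than in any control library of the same sort. Summed over the 3 genes, the level per kilobase was 11569 ± 89.0, 11263 ± 493, 11027 ± 98.0 and 12672 ± 527, so the sum followed Ccnd3 and not the 2 minor cyclins. The shares depend on the length used: with the union of all exons the Ccnd3 share was 93.9%, 87.5%, 94.7% and 90.6%, in the same order of groups.

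**Figure D2:**
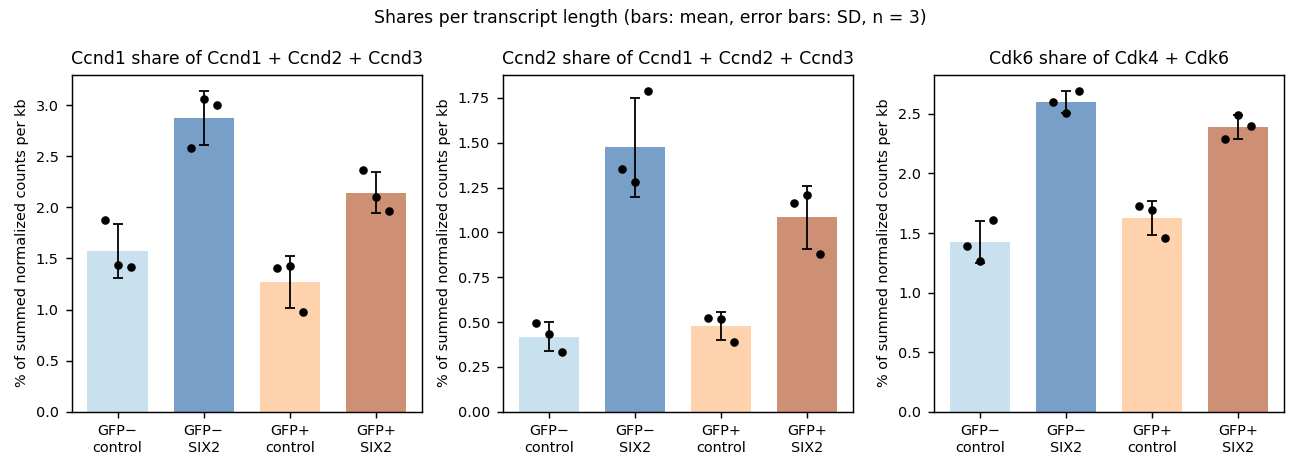
Share (vertical axes, % of summed normalized counts per kilobase of transcript, from 0) of Ccnd1 and Ccnd2 among the 3 D cyclins and of Cdk6 among Cdk4 and Cdk6, in the 4 groups (horizontal axes); points are libraries, bars are means and error bars are SD (n = 3). Each share is higher in both SIX2 groups, with Cdk6 at 2.60% and 2.39% against 1.42% and 1.63% in the control groups.

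Both kinases rose with the SIX2 label in both populations. Cdk6 (ENSMUSG00000040274.11, chr5:3341485-3531008, plus strand), one of the kinases that D cyclins activate, stood at 529, 426 and 518 in GFP-negative control and at 1120, 1153 and 1307 in GFP-negative SIX2 libraries. In GFP-positive cells it was 512, 534 and 428 with the control label and 1068, 1103 and 995 with the SIX2 label. No SIX2 library overlapped a control library. The log2 difference was 1.28 ± 0.11 (SE) in GFP-negative cells (limma-trend adjusted p = 7.56e-06), and GFP-positive cells gave 1.11 ± 0.11 (adjusted p = 2.20e-05).

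Cdk4, the other D cyclin kinase (ENSMUSG00000006728.12, chr10:127063534-127067920, plus strand), was the more abundant and moved less. GFP-negative control libraries gave 6668, 5926 and 5633, and GFP-negative SIX2 libraries 7470, 7982 and 8403. GFP-positive libraries gave 5190, 5532 and 5141 with the control label and 8128, 7699 and 7211 with the SIX2 label. Again no SIX2 library overlapped a control library of either sort. The log2 difference was 0.39 ± 0.07 (SE; limma-trend adjusted p = 0.00148) and 0.54 ± 0.07 (adjusted p = 0.000188). Tspan31, with 641 exon bases shared with Cdk4 on the opposite strand, was at 2948 ± 125 and 3062 ± 113 in GFP-negative and at 3007 ± 133 and 2986 ± 155 in GFP-positive control and SIX2 groups (SD, n = 3) and was not called. Per kilobase, Cdk6 was 1.42% to 2.60% of the summed kinase level in the 4 group means. The calls of Ccnd1, Ccnd2, Cdk4 and Cdk6 by plasmid label held under all 26 other settings and left-out libraries in both populations.

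The bases upstream of the start sites of Cdk4, Cdk6 and Cdkn1b are shown because Cdk4 and Cdk6 rose together in both populations while Cdkn1b did not follow them in GFP-positive cells. Sequences are from RefSeq on GRCm38.p6, plus strand, 5′ to 3′, and each run is the part of the window upstream of a start site that comes before the first exon annotated within it. For Cdk6 this leaves the 89 bases of the window that are farthest from the start site at 3343893, and they do not reach that site. They lie inside the annotated gene, downstream of the first base of another transcript. Capitals mark matches, on either strand, to 6 motifs: TCAGGTT (the MEF3 motif, bound by SIX2 and its relatives), GGGCGG (GC box), TTTNNCGC (an E2F-type motif), CAGCTG (a myogenic E-box), CCAAT and CACGTG (the E-box of MYC-type factors), the last chosen after the sequences had been seen.
Cdk4, chr10:127063285-127063533: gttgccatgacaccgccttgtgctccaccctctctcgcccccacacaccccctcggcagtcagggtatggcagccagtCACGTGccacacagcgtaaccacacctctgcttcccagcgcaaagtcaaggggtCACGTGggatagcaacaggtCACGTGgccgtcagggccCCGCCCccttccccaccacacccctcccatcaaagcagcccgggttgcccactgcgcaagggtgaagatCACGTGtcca
Cdk6, chr5:3343643-3343731: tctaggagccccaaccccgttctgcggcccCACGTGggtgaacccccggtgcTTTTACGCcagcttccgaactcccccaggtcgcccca
Cdkn1b, chr6:134920151-134920400: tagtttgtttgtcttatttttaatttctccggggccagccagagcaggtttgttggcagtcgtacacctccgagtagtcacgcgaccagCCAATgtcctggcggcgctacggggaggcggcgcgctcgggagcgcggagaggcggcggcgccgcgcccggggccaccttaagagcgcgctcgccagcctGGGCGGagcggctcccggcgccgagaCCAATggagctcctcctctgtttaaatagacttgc

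The Cdk4 window held 4 matches to CACGTG, and 7 of 32851 mouse windows of 250 bases (0.0213%) held at least 4. CACGTG was chosen after these sequences had been seen, so its shares are a description and not a test of enrichment. The Cdk6 window held 1, as 6.02% of all windows did, and 1 E2F-type match, which 4.28% held. The Cdkn1b window held 2 CCAAT matches, as at least 2 were in 10.1% of windows, and 1 GC box, present in 32.7%. RefSeq windows were matched for 7 of the 10 members, 11 windows in all. Ccnd1, Ccnd2 and Cdkn1c had no window, so no motif was looked for there. CACGTG was found in those of Cdk4 and Cdk6, and TCAGGTT, held by 3.49% of all windows, in none of the 11. A match is only a run of letters and says nothing of binding.

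Of the 3 CIP/KIP inhibitors, Cdkn1b was called higher with the SIX2 label in GFP-negative cells, and none was called by plasmid label in GFP-positive cells. Cdkn1a, which encodes p21 (ENSMUSG00000023067.14, chr17:29090976-29100727, plus strand), had the highest level per kilobase of the 10 genes in each group, with 18143 ± 1068 (SD, n = 3) for GFP-negative and 23320 ± 2035 for GFP-positive control libraries. Its normalized counts averaged 37737 ± 2221 and 38151 ± 780 in GFP-negative control and SIX2 libraries, which overlapped, and differed by 0.02 ± 0.08 (SE) on the log2 scale (limma-trend adjusted p = 0.894). Quantile normalization gave 0.18 (adjusted p = 0.0373). In GFP-positive cells they averaged 48505 ± 4232 with the control label and 41776 ± 3805 with the SIX2 label, and here too the libraries overlapped. That difference, -0.22 ± 0.08 (SE), had an adjusted p of 0.0536 and was called under 8 of 26 alternatives, among them TMM scaling (adjusted p = 0.0472) and DESeq2 on the recovered reads (0.0438).

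Cdkn1b, which encodes p27 (ENSMUSG00000003031.14, chr6:134920401-134925513, plus strand), took opposite directions in the 2 sorts. GFP-negative control libraries had 193, 226 and 174 normalized counts and GFP-negative SIX2 libraries 270, 268 and 286, without overlap. GFP-positive control libraries had 316, 296 and 293, and GFP-positive SIX2 libraries 263, 251 and 241, also without overlap but in reverse. The rise in GFP-negative cells was 0.48 ± 0.13 (SE; limma-trend adjusted p = 0.0120), and its adjusted p was 0.0533 without GFP-negative control replicate 3. In GFP-positive cells the difference was -0.26 ± 0.13 (adjusted p = 0.161) and was not called. The test of the difference between the sorts gave -0.74 ± 0.18 (SE; limma-trend adjusted p = 0.0995), the smallest of the members. It did not pass the threshold with limma or edgeR and passed with DESeq2 (adjusted p = 0.0184). The 4 groups ordered as GFP-negative control, GFP-positive SIX2, GFP-negative SIX2 and GFP-positive control, each neighbour pair without overlap.

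Cdkn1c, which encodes p57 (ENSMUSG00000037664.13, chr7:143458339-143461050, minus strand), was low and uneven. It had 114, 99.9 and 134 normalized counts in GFP-negative control libraries and 27.8, 49.4 and 68.6 in GFP-negative SIX2 libraries, without overlap. GFP-positive libraries had 36.7, 43.2 and 61.6 with the control label and 105, 27.3 and 17.9 with the SIX2 label, so 1 GFP-positive SIX2 library reached the level of the GFP-negative controls. The GFP-negative difference of -1.32 ± 0.52 (SE) had an adjusted p of 0.0736 with limma-trend and was called under 5 of 26 alternatives, among them DESeq2 (adjusted p = 0.0348). The GFP-positive difference was -0.29 ± 0.52 (adjusted p = 0.740), and its sign is not settled: it was 0.22 without SIX2 replicate 3, 0.099 with edgeR and 0.092 with DESeq2.

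Of the INK4 inhibitors, Cdkn2c was measured well above the limit and Cdkn2a was not. Cdkn2a, the locus of p16 and p19ARF (ENSMUSG00000044303.6, chr4:89274471-89294653, minus strand), had 0 to 13 reads a library and was not tested. GFP-negative SIX2 libraries held 13, 6 and 7 reads and GFP-negative control libraries 1, 4 and 1. GFP-positive libraries held 2, 5 and 0 with the control label and 0, 2 and 1 with the SIX2 label. At these depths 3 reads correspond to 1.66 to 6.43 normalized counts, so the values lie near this limit and no direction is given.

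Cdkn2c, which encodes p18 (ENSMUSG00000028551.14, chr4:109660876-109667189, minus strand), was lowest in the GFP-positive control group. GFP-positive control libraries had 161, 187 and 221 normalized counts and GFP-positive SIX2 libraries 339, 286 and 262, without overlap. GFP-negative control libraries had 291, 326 and 341 and GFP-negative SIX2 libraries 302, 323 and 408, which overlapped. The log2 difference by plasmid label was 0.64 ± 0.16 (SE) in GFP-positive cells (limma-trend adjusted p = 0.0105) and 0.10 ± 0.16 in GFP-negative cells (adjusted p = 0.691). The difference between these was 0.54 (limma-trend adjusted p = 0.248), so the populations were not shown to differ in this response.

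Summed per kilobase, the CIP/KIP level was 1.58 ± 0.0818 (SD, n = 3) times the D cyclin level in the GFP-negative control group, 1.64 ± 0.0388 in the GFP-negative SIX2 group, 2.12 ± 0.200 in the GFP-positive control group and 1.59 ± 0.0789 in the GFP-positive SIX2 group. The 3 GFP-positive control libraries, at 1.97 to 2.35, lay above the other 9. The ratio is carried by Cdkn1a and Ccnd3, the 2 genes with the highest level per kilobase. Its size depends on the length used, as the shares do. Longest coding transcripts have 2080 bases for Cdkn1a and 2113 for Ccnd3, and the unions of all exons 3553 and 8775. The ratio was not computed with the exon unions, so its level is not a measure of inhibitor excess.

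**Figure D3:**
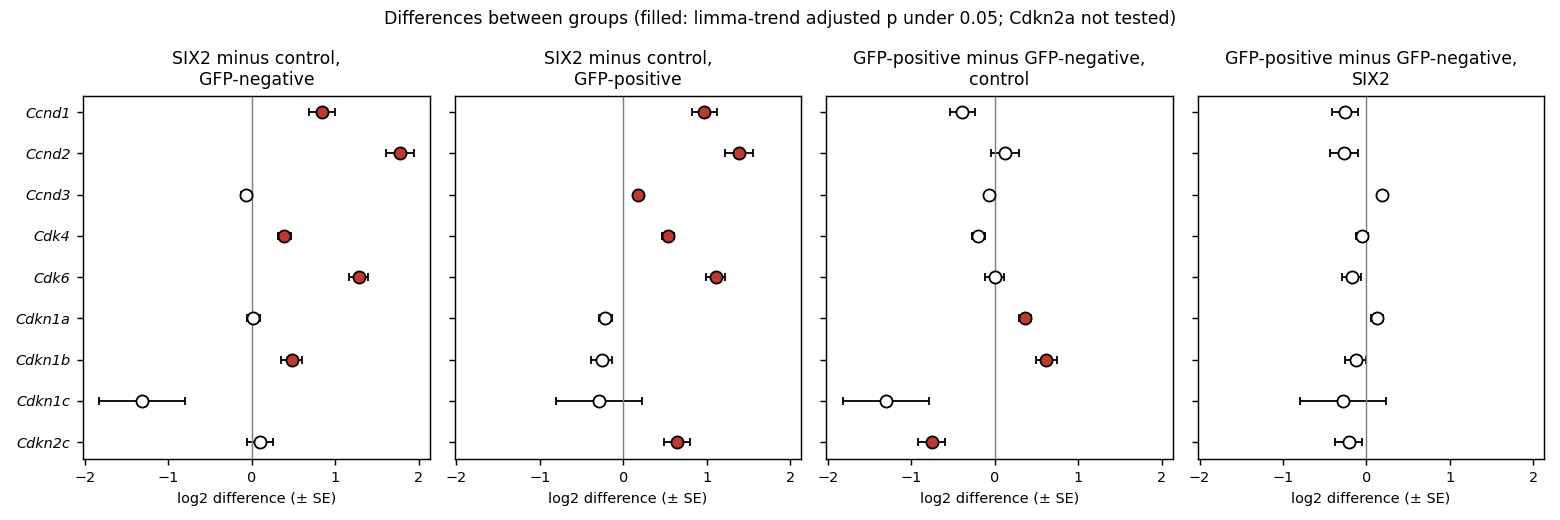
Log2 difference (horizontal axes, ± SE) of the 9 tested genes (vertical axis) in the 4 comparisons; filled points have a limma-trend adjusted p under 0.05. Ccnd1, Ccnd2, Cdk4 and Cdk6 are filled in both comparisons by plasmid label, Cdkn1a, Cdkn1b and Cdkn2c in the comparison of control libraries, and no gene in the comparison of SIX2 libraries.

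Between the sorts, the members called were inhibitors and not D cyclins or their kinases. In control libraries Cdkn1a and Cdkn1b were higher in GFP-positive than in GFP-negative cells and Cdkn2c was lower, 3 of the 9 tested members, where 3.48% of all tested genes were called, 0.919% higher and 2.56% lower. Cdkn1a was 35482, 37807 and 39922 normalized counts in GFP-negative and 53248, 47154 and 45112 in GFP-positive control libraries, without overlap. The log2 difference was 0.36 ± 0.08 (SE), with a limma-trend adjusted p of 0.0231. Cdkn1b differed by 0.61 ± 0.13 (adjusted p = 0.0214) and Cdkn2c by -0.76 ± 0.16 (adjusted p = 0.0239). The control libraries used here are the same ones that enter the comparisons by plasmid label. These calls depended on single libraries. No member was called without GFP-negative control replicate 1, GFP-positive control replicate 1 or GFP-positive control replicate 2, 1 was called without GFP-negative control replicate 2 and 1 without GFP-negative control replicate 3. The adjusted p of the 3 genes then reached 0.115, 0.0909 and 0.105, while their differences stayed within 0.26 to 0.41, 0.50 to 0.71 and -0.87 to -0.59 over all 26 alternatives. Cdkn1b was also lost with only the compared libraries in the fit (adjusted p = 0.0520) and Cdkn2c with quantile normalization (0.0516).

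The D cyclins, Cdk4 and Cdk6 did not pass the threshold between the sorts in control libraries. Ccnd1 was lower in every GFP-positive control library than in any GFP-negative one, with a log2 difference of -0.39 (limma-trend adjusted p = 0.179), and so was Cdk4, at -0.20 (adjusted p = 0.153). Ccnd2 differed by 0.12 (adjusted p = 0.741) and Ccnd3 by -0.07 (adjusted p = 0.510). Cdkn1c was lower without overlap, at -1.30 ± 0.52 (SE), with an adjusted p of 0.180. It was called in a fit of the control libraries alone (adjusted p = 0.0308) and without GFP-positive SIX2 replicate 1 (0.0490).

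In SIX2 libraries none of the 9 members was called between the sorts, and 0.192% of all tested genes were, 0.0137% higher and 0.178% lower. The smallest adjusted p among the members was 0.137, for Ccnd3 with a log2 difference of 0.19, and DESeq2 called that gene alone among the members (adjusted p = 0.0397). At an unadjusted p under 0.05 limma-trend passed 1893 genes there. Ccnd3 was higher in every GFP-positive than in any GFP-negative SIX2 library. For the difference of the plasmid response between sorts, limma-trend and edgeR called 0 members and 0 of all genes (0.00% in total, higher or lower), with 2437 genes at an unadjusted p under 0.05, and DESeq2 called 2 members, Ccnd3 and Cdkn1b, and 558 genes.

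The members were also counted by overlap of libraries. In GFP-negative cells 5 of the 9 tested members were higher and 1 lower in every SIX2 library than in any control library, where 22.8% of all tested genes were higher and 23.5% lower in that way. In GFP-positive cells 6 were higher and 1 lower, against 18.7% and 18.1%. Between control libraries of the sorts 2 were higher and 5 lower in GFP-positive cells, against 13.0% and 14.1%, and between SIX2 libraries 1 was higher and 3 lower, against 9.05% and 8.16%.

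The neighbours of these genes in the pathway moved in part. Among 8 genes of the cyclin E and A kinases, Ccna2, Ccne1 and Ccne2, the cyclins that act after the D cyclins, rose with the SIX2 label in both populations, where 13.6% of all tested genes rose in GFP-negative and 12.1% in GFP-positive cells. Ccna2 went from 1646 ± 138 to 2716 ± 108 normalized counts (SD, n = 3) in GFP-negative cells and from 1075 ± 18.7 to 2537 ± 215 in GFP-positive cells, log2 differences of 0.72 ± 0.08 and 1.23 ± 0.08 (SE; limma-trend adjusted p = 3.73e-05 and 9.17e-07). Ccne1 rose by 0.90 and 1.09 and Ccne2 by 1.11 and 0.91. No gene of the list was lower in GFP-negative cells, where 14.3% of all tested genes were. Cdk2 and Mnat1, a subunit of the CDK-activating kinase, were lower in GFP-positive cells, where 11.2% of all tested genes were. Mnat1 had a log2 difference of -0.49 there (limma-trend adjusted p = 0.0053). Between control libraries of the sorts, Ccna2 and Ccne1 were called lower in GFP-positive cells. Their log2 differences were -0.61 and -0.50 (limma-trend adjusted p = 0.0021 and 0.0264). No gene of the list was called higher there, and 2.56% of all tested genes were lower.

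Of 13 pocket protein and E2F genes, 3 rose and 4 fell in GFP-negative cells, where 13.6% and 14.3% of all tested genes did. In GFP-positive cells 2 rose and 1 fell, near the 12.1% and 11.2% of all tested genes. E2f2, an activating E2F, rose by 0.87 ± 0.15 and 0.90 ± 0.15 (SE; limma-trend adjusted p = 0.000962 and 0.000915). E2f8, an atypical repressing E2F, fell by 0.49 and 0.26 (adjusted p = 0.000868 and 0.0443). E2f7, of the same atypical repressing type, went the other way and was called higher in both populations. Rb1, the retinoblastoma gene, fell by 0.85 ± 0.17 in GFP-negative cells (adjusted p = 0.00257), from 2112 ± 39.4 to 1173 ± 15.8 normalized counts, and in GFP-positive cells it was 1379 ± 354 with the control and 1191 ± 256 with the SIX2 label (adjusted p = 0.447). E2f4, which binds pocket proteins, fell by 0.80 in GFP-negative cells (adjusted p = 0.000336) and differed by -0.19 in GFP-positive cells (adjusted p = 0.291). The difference of these responses between the sorts was not called for Rb1 or E2f4 (adjusted p = 0.209 and 0.129).

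Of 13 tested genes for the turnover of cyclin D and p27, 2 rose and 5 fell in GFP-negative cells (13.6% and 14.3% of all tested genes) and 2 rose and 3 fell in GFP-positive cells (12.1% and 11.2%), so the share that rose was near that of all tested genes. Skp2, the F-box protein that marks p27 for degradation, and its cofactor Cks1b were the 2 that rose in each. Cks1b went from 913 ± 84.3 to 1883 ± 131 normalized counts (SD, n = 3) and from 753 ± 74.7 to 1530 ± 179, differences of 1.05 ± 0.11 and 1.02 ± 0.11 on the log2 scale (SE; limma-trend adjusted p = 1.85e-05 and 2.43e-05). Skp2 rose by 0.74 (adjusted p = 0.00324) and 0.52 (adjusted p = 0.0260). Fbxw7, the F-box protein for cyclin E, fell by 0.52 and 0.64 (adjusted p = 0.00296 and 0.000925). Ubac1, a cofactor of a p27 ubiquitin ligase, fell by 0.71 in GFP-negative cells (adjusted p = 0.0015) and differed by 0.05 in GFP-positive cells (adjusted p = 0.738). Cdkn1b transcript took a different sign in each sort, as given above.

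Of 15 upstream regulators, 5 rose and 2 fell in each population, against 13.6% and 14.3% of all tested genes in GFP-negative and 12.1% and 11.2% in GFP-positive cells, so the share that fell was near that of all tested genes. Myc, Mycn, Fosl1 and Trp53 rose in both. Fosl1, an AP-1 subunit, went from 209 ± 64.0 to 440 ± 35.6 and from 157 ± 8.83 to 412 ± 79.4 normalized counts (SD, n = 3), log2 differences of 1.11 and 1.37 (limma-trend adjusted p = 0.00102 and 0.000285). Trp53, whose protein activates Cdkn1a, rose by 0.43 and 0.44 (adjusted p = 0.000514 and 0.000565), and Cdkn1a was not called by plasmid label in either population. Zbtb17, whose protein MIZ1 binds MYC, fell by 0.51 and 0.31 (adjusted p = 0.000194 and 0.00712). Jun differed by -0.16 in GFP-negative cells (adjusted p = 0.145) and fell by 0.58 in GFP-positive cells (adjusted p = 0.000156). Of the 3 further genes named as CDK inhibitors, Cdkn3 alone was called, and it encodes a phosphatase that acts on CDKs. It rose by 1.30 in GFP-negative cells (adjusted p = 0.000647), where 13.6% of all tested genes rose. In GFP-positive cells Cdkn3 differed by 0.54 (adjusted p = 0.0887). Cdkn2b and Cdkn2d, the other INK4 genes, lay at 241 to 289 and 1110 to 1278 normalized counts in group means and were not called.

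**Figure D4:**
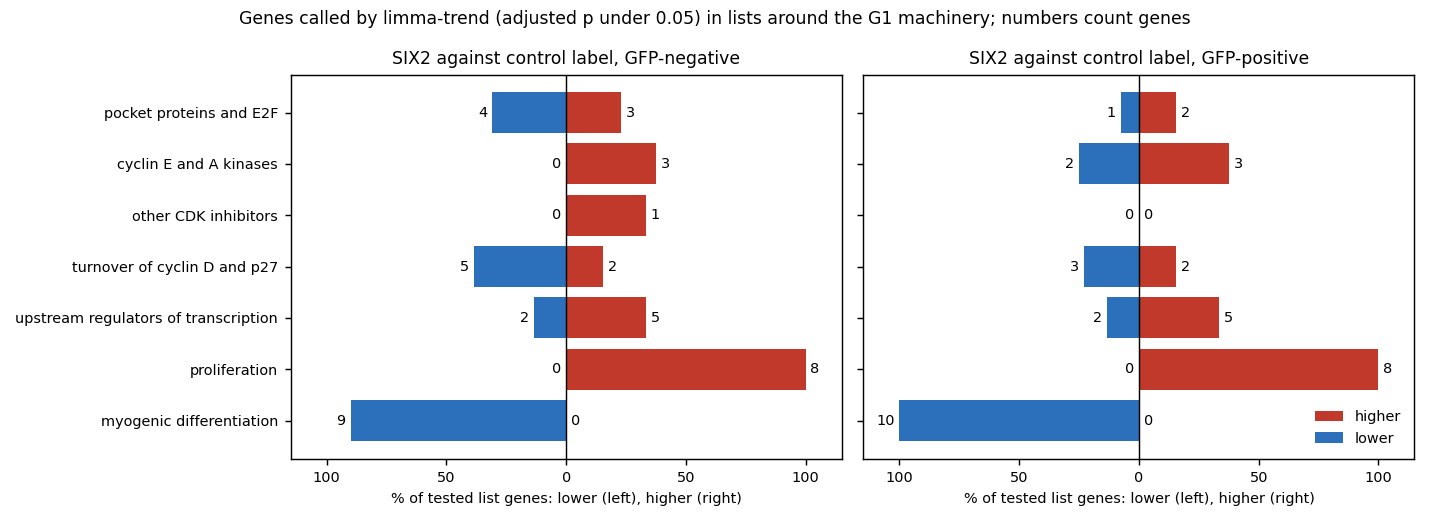
Share of the tested genes of each list (horizontal axes, %) called higher (red, right) or lower (blue, left) with the SIX2 label by limma-trend at an adjusted p under 0.05; numbers count genes, and lists are on the vertical axis. All 8 proliferation genes are higher in both populations. The cyclin E and A kinases hold 3 higher and 0 lower genes in GFP-negative cells, and 3 and 2 in GFP-positive cells. The other CDK inhibitors hold 1 call at most, and the pocket protein, turnover and upstream regulator lists hold genes in both directions.

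The state of the cells moved with the same labels. All 8 proliferation genes rose with the SIX2 label in both populations, against 13.6% and 12.1% of all tested genes. Their summed normalized counts were 10536 to 11899 in GFP-negative control, 20146 to 21283 in GFP-negative SIX2, 7648 to 9488 in GFP-positive control and 16751 to 19988 in GFP-positive SIX2 libraries. Of 10 myogenic differentiation genes, 9 fell in GFP-negative and 10 in GFP-positive cells, against 14.3% and 11.2% of all tested genes. The part of this shift in the differences of Ccnd1, Ccnd2, Cdk4 and Cdk6 was not tested.

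Genes whose levels across the 12 libraries lay closest to each member were named by the smallest root-mean-square difference of centred log2 values, as a description. For Ccnd2 these were Psrc1, a spindle protein (0.182), and Glipr2 (0.196). For Ccnd1 they were Sting1 (0.0975) and Arpc1b, a subunit of the ARP2/3 complex (0.114). Cdk6 lay nearest to Peg12 (0.108) and Bcat1, a branched-chain aminotransferase (0.114). Cdk4 lay nearest to Axl, a receptor tyrosine kinase (0.0513), and Hdac1, a histone deacetylase (0.0585). For Cdkn1b the nearest were Mrpl54 (0.122) and Ptp4a2 (0.123), and for Cdkn2c they were Yaf2 (0.143) and Map3k2 (0.150). The root-mean-square spread of the member itself was 0.819 for Ccnd2, 0.513 for Ccnd1 and 0.612 for Cdk6. It was 0.254 for Cdk4, 0.244 for Cdkn1b and 0.371 for Cdkn2c. Relative to these spreads, the genes nearest to Cdkn1b and Cdkn2c were the least close. No 2 members shared a nearest gene.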

How the data were processed

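RNA sequencing of 12 libraries was analysed, 3 in each of 4 groups taken from the sample titles. Complementary DNA was made by SMART-Seq2 and fragmented with Tn5, per the labels' protocols. FastQC 0.12.1, MultiQC 1.19, STAR 2.7.11a, RSEM 1.3.3, DESeq2 1.42.0 and build GRCm38 come per the submitters' processing notes; settings are not given in the sources used here. The deposited values are normalized counts per gene, a signal on a linear scale that the authors obtained by dividing each library by a size factor, per the file headers and the values. Division by the step of each library gave whole reads for 100% of values within 1e-04.

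The test was limma-trend, run with limma 3.58.1 under R 4.3.3. It took log2 of the normalized count plus 1, 4 group means over the 12 libraries fitted together, and was two-sided. It covered the 14580 genes that reached 10 normalized counts in 3 or more libraries, and was checked on simulated data. Fold changes on this scale understate the change of low genes. The recovered reads were tested with edgeR 4.0.16, by quasi-likelihood, and with DESeq2. These fits, other pseudocounts, filters and scalings, library weights, the replicate block, thinning, GC trends and left-out libraries were alternatives, and the GC content of the richest 200-base window was added after the data had been seen. Empty adjusted p values of DESeq2 were not counted as calls. Levels per kilobase used the longest coding transcript of the GRCm38 annotation. All members were named; of each pathway list, up to 4 genes with the smallest p over the two-group comparisons were named with values, and other list genes only by their call. For members with a called difference of at least 0.5, the 2 nearest genes with a mean of at least 50 were named. The overlapping genes LTO1, Bysl, Tspan31 and Ccnd3-ps were chosen by position. The members and lists were chosen with earlier results of these data known. Replicates of a group differed beyond sampling noise. Figures used matplotlib 3.10.9.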

Additional observations from a re-analysis of the deposited data

Results flagged for a closer look

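Cdkn1b (p27) moved in opposite directions with the SIX2 label in the 2 sorts: every GFP-negative SIX2 library was above every GFP-negative control library, and every GFP-positive SIX2 library was below every GFP-positive control library. The difference of the 2 responses was -0.74 on the log2 scale (limma-trend adjusted p = 0.0995), which did not pass the threshold, and it ranged from -0.84 to -0.61 over 25 alternatives with adjusted p between 0.0184 and 0.230.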

How the results depend on the processing

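Counts of called members by plasmid label stayed at 4 to 6 in GFP-negative and 5 to 7 in GFP-positive cells when single libraries were left out, and within 1.5 times the main count under all other settings. Between the sorts, left-out libraries gave 0 to 4 called members in control libraries and 0 in SIX2 libraries, and DESeq2 called 1 in SIX2 libraries and 2 for the difference of the plasmid responses, where limma called 0; the cause was not tested. Replicate numbers did not pair the libraries (correlations of same-numbered deviations -0.203 to 0.0527 over 18 pairs, 0 of them over 0.1), and the replicate block left 5, 6, 3, 0 and 0 members called; it moved all genes called between control sorts from 507 to 298. Other counts of all genes that moved by over 1.5 times were, in GFP-negative cells by plasmid label, 6142 with library weights; between control sorts, 1520 with library weights, 1087 with DESeq2 and 68 to 820 without single libraries; between SIX2 sorts, 294 with DESeq2, 18 after thinning and 13 to 60 without single libraries, against 28; and for the difference of responses, 282 with library weights, 558 with DESeq2, 3 with the richest-window GC trend removed, 56 without GFP-positive SIX2 replicate 3 and 171 without GFP-positive control replicate 3, against 0. DESeq2 gave 190 higher and 104 lower genes between SIX2 sorts, where limma gave 2 and 26. edgeR called 4064, 3299, 440, 29 and 0 genes in the 5 comparisons. Of the member differences, 20 changed sign, all uncalled and under these settings. By plasmid label in GFP-negative cells, Ccnd3 was 0.068 with quantile normalization and 0.065 with the transcript GC trend removed, and without single libraries Cdkn2c ranged from -0.030 (without SIX2 replicate 3) to 0.19 and Cdkn1a from -0.026 (without control replicate 1) to 0.059. In GFP-positive cells Cdkn1c ranged from -1.03 to 0.22 (the latter without SIX2 replicate 3), and was 0.099 with edgeR and 0.092 with DESeq2. Between control sorts Cdk6 was -0.0041 with TMM scaling, -0.098 without GFP-negative replicate 2, -0.032 and -0.062 without GFP-positive replicates 1 and 2 (up to 0.097 without single libraries), -0.029 after thinning and -0.015 with the transcript GC trend removed, and Ccnd2 ranged from -0.034 (without GFP-negative replicate 3) to 0.26. Between SIX2 sorts Cdkn1c ranged from -1.01 to 0.24, with 0.013 and 0.24 without replicate 3 of GFP-negative and GFP-positive cells, and was 0.034 with edgeR and 0.042 with DESeq2. For the difference of responses Ccnd1 was -0.072 with library weights and ranged from -0.045 (without GFP-positive control replicate 3) to 0.23. Depth limits Cdkn2a, at 0 to 13 reads, and Cdkn1c most.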
